A study of Daphnia magna with 16 samples.

Results

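The contrast described here set the mean of 3 mutant clones of the water flea Daphnia magna, all made by CRISPR-Cas9 in the tryptophan hydroxylase (TRH) gene, against the mean of the wild type clone from which they derive. All 16 arrays of the series enter it, 12 from mutant animals and 4 from the wild type, and each mutant clone carries the same weight. The mutant clones are T+ (labelled clone 13, +/-, with a mutation in only one allele), clone 16 (-/-) and clone 17 (-/-), with 4 females each, and the wild type W is clone F (+/+), also with 4 females. Each array was hybridized with total RNA from the whole body of a single female, labelled with Cy3, on an Agilent one-colour array. The sample labels give an age of 4 days in one field and of 5 days in another, whereas the methods of the study describe adult females frozen after the reproduction test, once their broods had been removed. Each line is 1 clone, W included, so a change common to the mutants cannot be told apart from a difference between the W line and the animals from which the mutants were raised, and the p-values measure the spread between sister animals.

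Tryptophan hydroxylase carries out the first and rate-limiting step of the synthesis of serotonin from tryptophan, and serotonin acts as a neurotransmitter that in many animals governs feeding, growth and reproduction. Tryptophan that is not used in this way is largely broken down through the kynurenine pathway, which begins with tryptophan 2,3-dioxygenase. Daphnia grow by shedding and rebuilding a cuticle made of chitin and cuticular proteins, at every moult through adult life. In arthropods the mevalonate pathway, with HMG-CoA synthase and HMG-CoA reductase among its first enzymes, does not end in cholesterol but supplies other isoprenoids, among them the juvenile hormones and their relatives.

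Values are log2 fluorescence after quantile normalization of the processed spot signals, and a difference is always mutants minus W on that scale. Well above background, by the mark of the scanner software, were 11232 to 14694 probes per mutant array and 9918 to 13676 per W array, the lowest number being that of W replicate 7. Within their clones, T+ replicate 5 and clone 17 replicate 5 stood apart on the first principal component, with scores of 89.7 and 95 against −103 to −61.4 on the other 6 arrays of these clones. Clone 17 replicate 7 was the only mutant array at position 1 of its slide, with a local background of 36, whereas W replicates 3, 5 and 9 all lay at that position, with 35 to 37. The remaining arrays had 41 to 47. The file of W replicate 7 gives no slide, and its spot coordinates fit only the free place at position 4 of the second slide. T+ replicate 5 and clone 17 replicate 5, which stood apart, also lay at position 4 of their slides. So did clone 16 replicate 5, with a first component score of 90.5, but the clone 16 arrays at other positions had 78.9 to 107. W replicate 7 had the highest W score, 53.8. The part of position 4 in these scores was not tested. The probe of the TRH gene itself was not analysed here, since the sources used pair no probe with it. Common names were taken from the list of 51 probes that the study drew up by gene ontology on these same arrays, so that the direction of these probes is not independent evidence.

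More probes were called lower in the mutants than higher. Of 17286 probes tested, 200 were lower in the mutants than in W (1.16% of the probes tested) and 35 were higher (0.202%), with limits of 0.05 on the adjusted p-value and of 1.5-fold on the change (limma, two-sided, Benjamini-Hochberg over all tested probes). The median difference over all tested probes was 0.08. The lower probes fell by 0.63 to 6.52, with a median difference of −2.42, and 126 of them changed by 4-fold or more. The higher probes rose by 0.61 to 4.30, with a median of 1.17, and 9 changed by 4-fold or more. All 12 mutant arrays lay below all 4 W arrays for 109 of the lower probes, against 140 (0.81%) among all tested probes, and above them for 19 of the higher probes, against 41 (0.237%) among all tested probes. The called probes were chosen by the same contrast, so these counts describe them and test nothing. At an unadjusted p-value below 0.05 and without a fold limit the balance was the other way, with 778 probes lower and 1356 higher.

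The lower probes were mostly strong in the wild type. With the tested probes divided by their W level into 4 classes of equal number, 100 of the 200 lower probes were in the brightest class, 62 in the next, 37 in the one after and 1 in the dimmest. Of the 35 higher probes, 23 were in the dimmest class and 4 in each of the others. The W level is itself a term of the contrast, and a probe near background in W has little room to fall. These splits were thus fixed in part beforehand and describe the called probes only. Of the lower probes 22 were well above background on none of the mutant arrays and 71 on all 12 of them, and 156 were so on all 4 W arrays. Of the higher probes 18 had this mark on no W array, 3 had it on no array at all and 9 had it on all 16 arrays.

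**Figure D1:**
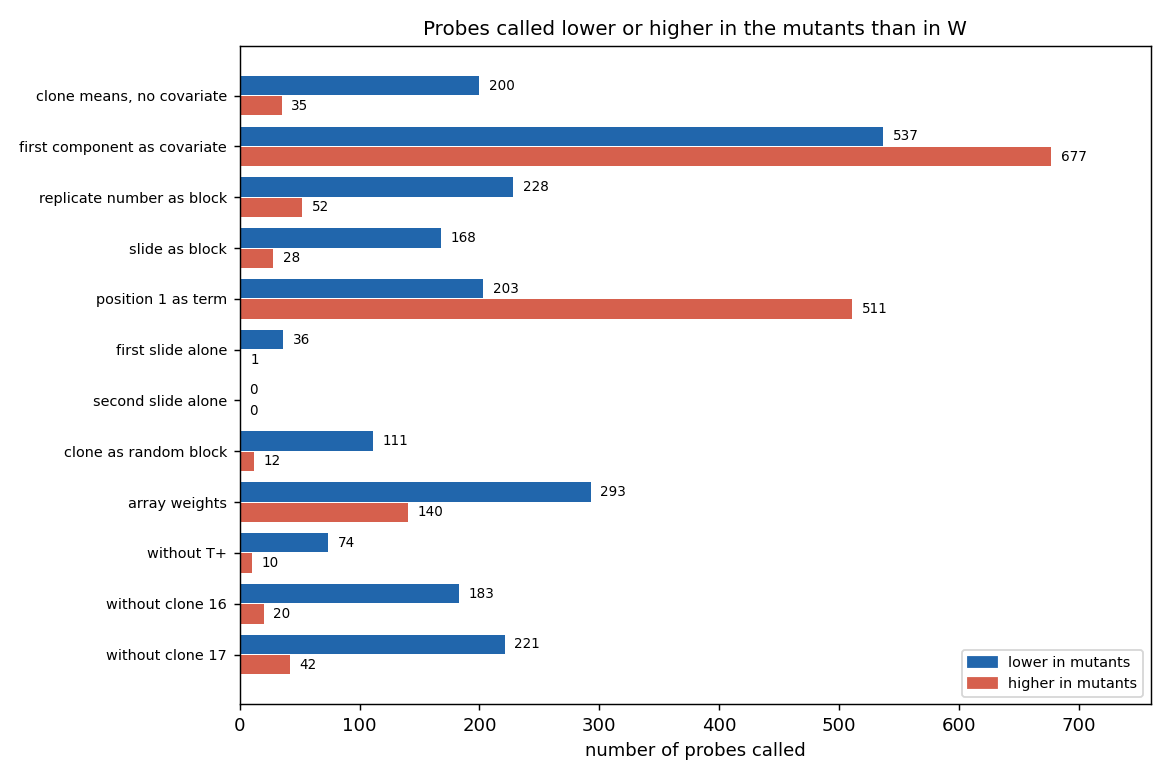
Number of probes (horizontal axis) called lower (blue) or higher (red) in the mutants than in W under 12 models or sets of arrays. The lower calls range from 0 on the second slide alone to 537 with the first principal component as a covariate, where the higher calls reach 677.

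The number of calls depended on the arrays and on the layout of the slides. Without T+ replicate 5 and clone 17 replicate 5, an alternative chosen after seeing the data, 401 probes were lower and 539 higher, and lower probes made up 42.7% of the calls, against 85.1% with all arrays. Single arrays also counted, since 109 probes were lower without W replicate 9, and the higher probes numbered 12 without W replicate 7, 68 without W replicate 3, 57 without T+ replicate 5 and 55 without clone 17 replicate 5. Without the whole of T+ 74 were lower and 10 higher. On the first slide alone 36 probes were lower and 1 was higher, and on the second slide, with W replicate 7 placed there, limma called 0 in either direction (556 lower and 1234 higher at an unadjusted p-value below 0.05). Over the 200 lower probes the median difference was −2.63 on the first slide and −2.36 on the second, against −2.42 on both. With the slide as a block 165 were lower and 8 higher without W replicate 7, and 168 and 28 with it placed on the second slide. With position 1 as a term and W replicate 7 left out, only clone 17 replicate 7 links position and genotype, and 2 probes were lower and 0 higher (450 and 362 at an unadjusted p-value below 0.05). The median difference over the 200 and the 35 probes was then −3.09 and 1.14. With W replicate 7 placed at position 4, the same term gave 203 lower and 511 higher probes. With the 3 mutant clone means and the W mean as the only units, limma called 0 lower and 0 higher probes (374 and 863 at an unadjusted p-value below 0.05). The part of array position in the differences was not tested beyond these models.

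**Figure D2:**
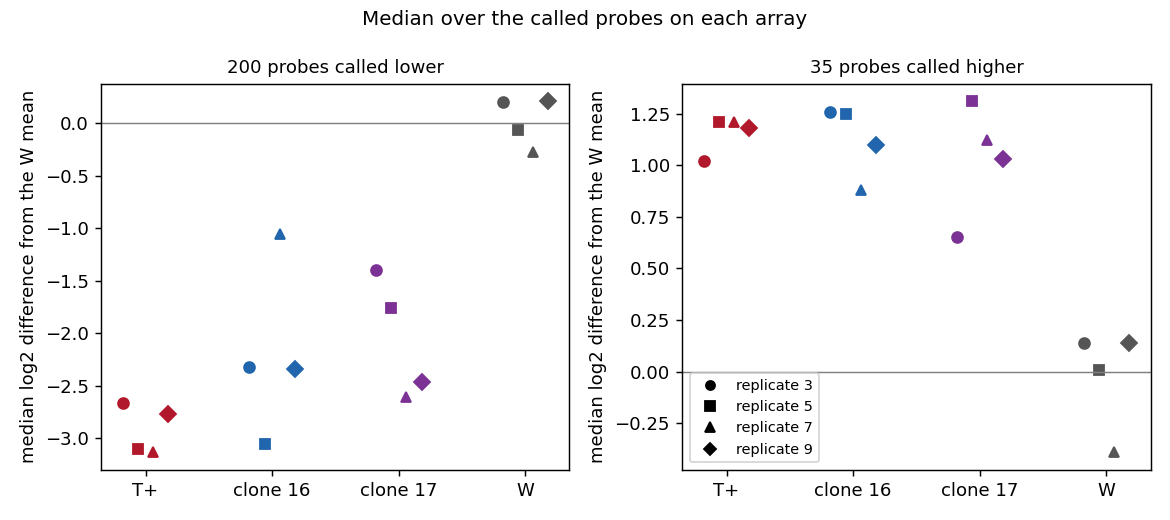
Median log2 difference from the W mean (vertical axis) over the 200 lower probes (left) and the 35 higher probes (right) on each array, by clone, with a symbol for each replicate number. For the lower probes clone 16 replicate 7 and clone 17 replicate 3 are the mutant arrays closest to W, at −1.05 and −1.40.

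How strongly single females departed from W differed within clones. Over the 200 lower probes, the median difference from the W mean was −2.66, −3.10, −3.13 and −2.77 on the T+ arrays (replicates 3, 5, 7 and 9), −2.32, −3.05, −1.05 and −2.34 on those of clone 16, and −1.40, −1.76, −2.61 and −2.46 on those of clone 17, against 0.20, −0.06, −0.27 and 0.21 on the W arrays. Since these probes were chosen by this contrast, the values describe them and test nothing. The nearest mutant arrays to W were clone 16 replicate 7, which reached the lowest W value for 41 of the 200 probes, and clone 17 replicate 3, which did so for 47. The 4 T+ arrays did so for at most 2 probes each. Without those 2 arrays 239 probes were lower and 40 higher. The mutant array at position 1, clone 17 replicate 7, had a median of −2.61, and the W array placed away from that position, replicate 7, one of −0.27. Over the 35 higher probes the medians were 1.02 to 1.21 in T+, 0.88 to 1.26 in clone 16 and 0.65 to 1.31 in clone 17, against −0.39 to 0.14 in W.

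The size of the decrease varied among the clones. The median change of the lower probes reached −2.99 for T+, −2.23 for clone 16 and −2.13 for clone 17, each measured against the same 4 W arrays. The mono-allelic clone T+ had the lowest of the 3 clone means for 143 of the 200 probes, clone 16 for 45 and clone 17 for 12. Among all tested probes whose 3 clone means lay below W, T+ had the lowest for 43.9%, clone 16 for 36.6% and clone 17 for 19.5%. For the higher probes the medians were 1.15, 1.10 and 1.10 in the same order. The standard deviation of the 3 clone changes had a median of 0.52 over the lower probes and 0.18 over the higher probes, against 0.16 over all tested probes.

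Differences among the mutant clones, which do not involve W, were tested by limma's F test. None of the 200 lower probes passed it after adjustment (0 of 200; 63, or 31.5%, at an unadjusted p-value below 0.05, against 16.6% of all tested probes), and 1 of the 35 higher probes did, against 7 (0.0405%) of all tested probes. These counts rested on the 2 arrays that stood apart. Called probes that differed among the clones numbered 62 without T+ replicate 5 and 72 without clone 17 replicate 5, against 1 with all arrays. A p-value above the threshold therefore does not show that the clones changed alike.

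The probe that differed, CUST_48867_PI429715507, has no gene name in the sources used here. Its log2 values were 9.52, 9.90, 7.31 and 8.96 in clone 16, 3.81 to 4.43 in T+, 3.78 to 4.87 in clone 17 and 3.79 to 3.83 in W. It was well above background only on the 4 arrays of clone 16, and its call in the pooled contrast (1.87, SE 0.35, adjusted p = 0.0156, limma) was thus carried by one clone (adjusted p among the clones = 0.000356, limma F test).

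**Figure D3:**
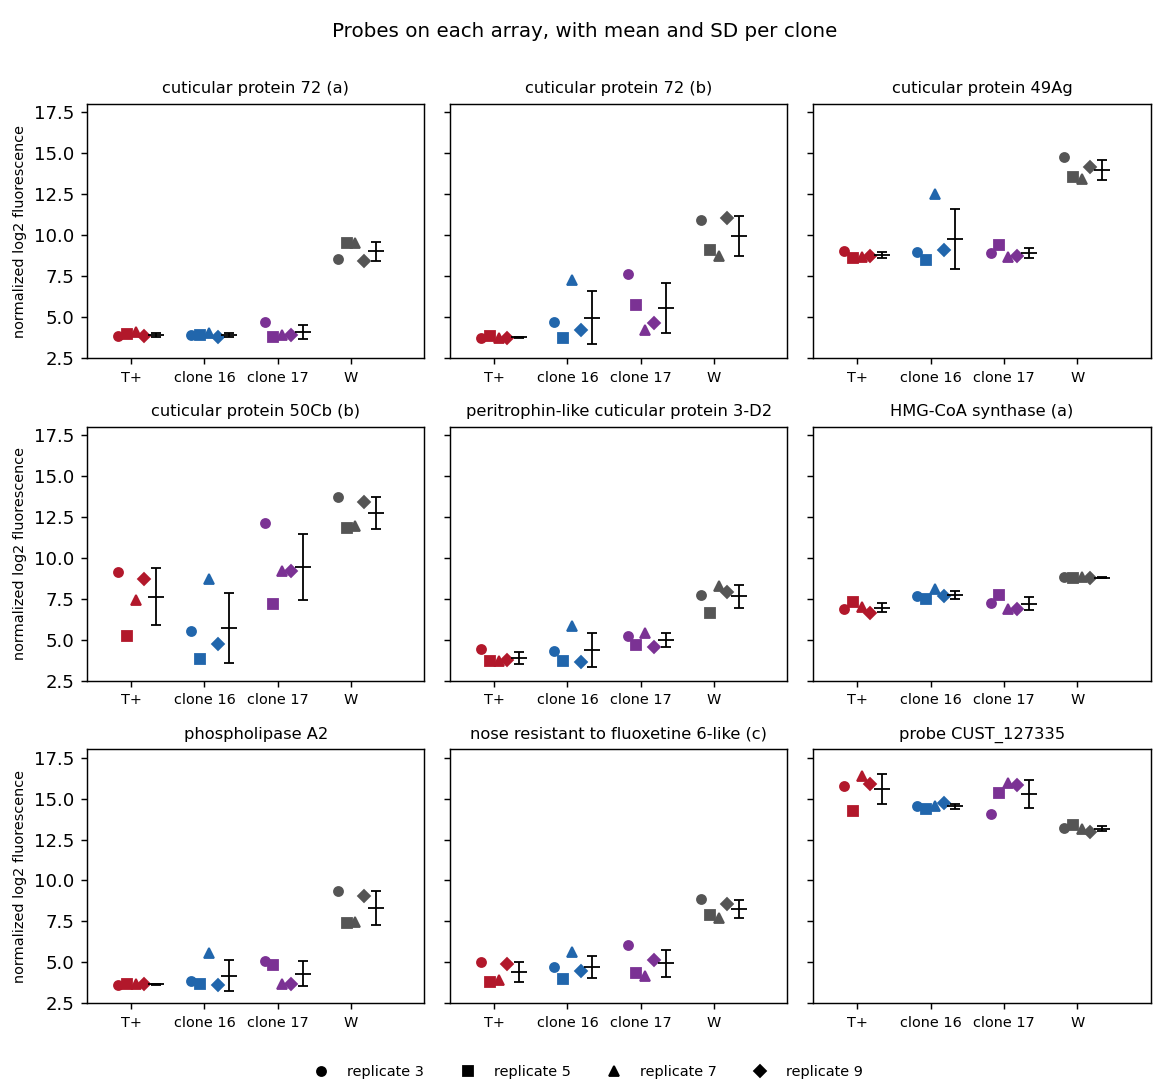
Normalized log2 fluorescence (vertical axis) of 9 probes on each array, by clone, with the mean and SD of each clone in black and a symbol for each replicate number. In 7 of the 8 named probes drawn all 12 mutant arrays lie below all W arrays, cuticular protein 50Cb (b) being the exception, and probe CUST_127335 lies above W on all mutant arrays.

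Structural proteins of the cuticle were the group with the largest decreases among the named probes. Of 11 probes listed under cuticle structure, all of them tested, 8 were called lower, 0 higher (1.16% and 0.202% of all tested probes) and 3 were not called. The median difference over the 11 was −4.22, against 0.08 over all tested probes. It was −4.06 with dim mutant signals raised to the lowest signal well above background on their array. The group moved on single arrays as follows: over its 8 called probes the median difference from the W mean was −5.68 to −5.11 in T+, −5.66 to −1.74 in clone 16 and −5.22 to −3.66 in clone 17, against −0.15 to 0.33 in W. The array at −1.74 was again clone 16 replicate 7. Of the 8 called, one is named after a DNA polymerase III gamma/tau domain and not after a cuticle protein.

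Cuticular protein 72 (a) (gene model Dapma7bEVm005358) had the smallest adjusted p-value of the named probes. It had 3.82, 3.96, 4.06 and 3.82 for T+, 3.92, 3.90, 4.03 and 3.77 for clone 16 and 4.72, 3.78, 3.88 and 3.89 for clone 17, against 8.54, 9.53, 9.50 and 8.43 in W. No mutant array was well above background, all 4 W arrays were, and the groups did not overlap. The difference was −5.04 (SE 0.21, adjusted p = 2.64e-08, limma), or 29.9-fold with dim mutant signals raised to a floor. That floor is the lowest signal well above background on each mutant array, or the probe's own where higher, set against the W mean. Values as high as 6.03 on a mutant array lacked the mark, in nose resistant to fluoxetine 6-like (c). The 29.9-fold is therefore not a lower limit. Over the 45 alternatives the difference ran from −5.52 to −2.8, so its size depends on the processing. The 3 clone changes were −5.08, −5.10 and −4.93. With the position 1 term and without W replicate 7 this probe was one of the 2 still called (−5.09, adjusted p = 0.00148, limma).

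A second gene model of the same name, cuticular protein 72 (b) (Dapma7bEVm018552), had 3.71 to 3.82 in T+, 3.70 to 7.28 in clone 16 and 4.22 to 7.63 in clone 17, against 10.94, 9.10, 8.71 and 11.06 in W. It was lower in the mutants (−5.20, SE 0.69, adjusted p = 0.00133, limma), with only 2 of the 12 mutant arrays well above background, and its highest mutant values were again those of clone 16 replicate 7 and clone 17 replicate 3. By clone the change amounted to −6.21 (T+), −4.99 (clone 16) and −4.39 (clone 17).

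Cuticular protein 49Ag (Dapma7bEVm009931) was well above background on all 16 arrays, so that its decrease was measured on both sides. The values were 9.04, 8.61, 8.67 and 8.75 for T+, 8.95, 8.50, 12.49 and 9.12 for clone 16 and 8.92, 9.37, 8.64 and 8.71 for clone 17, against 14.78, 13.56, 13.42 and 14.14 in W. The mutants were 28.4-fold lower (−4.83, SE 0.54, adjusted p = 0.000411, limma), and even clone 16 replicate 7, at 12.49, lay below every W array. Under the position 1 term without W replicate 7 the difference was −5.34 with an adjusted p of 0.259 (limma).

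The other called cuticle probes varied more between animals. RR-2 cuticular protein 23 (b), whose name refers to a chitin-binding motif of arthropod cuticle proteins, ranged over 3.64 to 11.95 (median 6.34) in the mutants, against 10.38, 13.69, 12.91 and 12.32 in W, so that the groups overlapped (−5.60, SE 1.20, adjusted p = 0.0327, limma). It no longer passed in 22 of the 45 alternatives, including those without W replicate 5, 7 or 9. Cuticular protein 50Cb (b) ranged over 3.81 to 12.13 (median 8.07) in the mutants, against 13.70, 11.82, 11.97 and 13.42 in W, again with overlap through clone 17 replicate 3 (−5.14, SE 0.96, adjusted p = 0.0148, limma). Other probes of these 2 names, RR-2 cuticular protein 23 (a) and cuticular protein 50Cb (a), had differences of −4.02 and −4.22. The standard deviation of the 3 clone changes had a median of 1.35 over the cuticle group, against 0.16 over all tested probes.

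Of the 3 cuticle probes that were not called, the clones lay far apart in cuticle protein and cuticular protein hypothetical 28. The probe named cuticle protein had 6.06 to 8.68 in clone 16, 8.02 to 13.18 in T+ and 9.59 to 15.54 in clone 17, against 16.16, 12.27, 12.04 and 15.48 in W. Its difference was −3.50 (SE 1.13, adjusted p = 0.213, limma), made up of −6.92 in clone 16, −2.57 in T+ and −0.99 in clone 17. Cuticular protein hypothetical 28 had the same order of clones, with −6.02, −1.70 and −0.57 (pooled −2.76, adjusted p = 0.32, limma). The third, AGAP000345-PA, had a difference of −2.42 (adjusted p = 0.0512, limma), with −2.54 in T+, −3.28 in clone 16 and −1.43 in clone 17. The standard deviation of its clone changes was 0.93, below the median of 1.35 over the cuticle group.

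Probes for chitin and aminosugar metabolism moved less, apart from the peritrophin-like proteins, which bind chitin. Of 12 listed probes 10 were tested, 5 of these were called lower and 0 higher (1.16% and 0.202% of all tested probes), and the median difference over the 10 was −0.86. Peritrophin-like cuticular protein 3-D2 had 3.65 to 5.81 (median 4.38) in the mutants, against 7.75, 6.62, 8.28 and 7.91 in W, without overlap (−3.23, SE 0.37, adjusted p = 0.000455, limma), and 1 of the 12 mutant arrays was well above background. Peritrophin-like cuticular protein 1-F had 3.75 to 9.44 (median 3.85) in the mutants, against 9.85, 8.10, 8.64 and 10.15 in W, and only clone 17 replicate 3, at 9.44, fell within the W range (−4.55, SE 0.82, adjusted p = 0.0114, limma). Well above background were 2 of its 12 mutant arrays. The third of these proteins, 1-E, had a difference of −3.03 (adjusted p = 0.0183, limma).

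Both enzymes of aminosugar turnover that were called had small changes. Oscillin, a glucosamine-6-phosphate deaminase, had 12.69 to 13.64 (median 13.24) in the mutants, against 14.48, 14.09, 13.70 and 14.37 in W. It was 1.97-fold lower without overlap (−0.98, SE 0.18, adjusted p = 0.0113, limma), with changes of −0.80 in T+, −1.30 in clone 16 and −0.84 in clone 17. Amidohydrolase domain containing 2, which removes the acetyl group of N-acetylglucosamine-6-phosphate, had 9.08 to 10.42 (median 9.96) in the mutants, against 11.01, 10.87, 10.58 and 11.17 in W, also without overlap (−0.98, SE 0.20, adjusted p = 0.0291, limma). Its call was lost in 19 of the 45 alternatives, including those without W replicate 3, 5 or 9, and that of oscillin in 11.

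For chitotriosidase, a chitinase represented by 4 probes of one gene model, no probe was called in the pooled contrast (differences −0.75 to −0.55). Its decrease was largest in T+ (−1.77 to −1.29), with −0.51 to −0.41 in clone 17 and 0.02 to 0.14 in clone 16. Probes (a), (b) and (c) did not pass the test among the clones (adjusted p = 0.227, 0.143 and 0.227, limma F test). For probe (d) the clones differed (adjusted p among the clones = 0.0483, limma F test). In that probe clone 17 replicates 5, 7 and 9 had 7.35, 7.55 and 8.10, below every W array (8.38 to 8.50), and replicate 3 had 8.71. Chitin deacetylase was not called either (−0.46, adjusted p = 0.577, limma).

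HMG-CoA synthase was lower in every mutant female than in any W female. Its 4 probes belong to one gene model (Dapma7bEVm000199), were well above background on all 16 arrays and were all called lower, with no overlap between mutants and W. Probe (a) had 6.90, 7.27, 7.01 and 6.61 for T+, 7.67, 7.48, 8.10 and 7.68 for clone 16 and 7.26, 7.73, 6.88 and 6.87 for clone 17, against 8.84, 8.75, 8.82 and 8.76 in W. It was 2.84-fold lower (−1.51, SE 0.16, adjusted p = 0.000381, limma). The other probes had differences of −1.47 (b), −1.27 (c) and −1.23 (d), with adjusted p-values of 0.000411, 0.000957 and 0.000472 (limma). Since the 4 probes read one transcript they are not 4 independent results. Clone 16 changed least in each of them (−1.06 to −0.95, against −1.89 to −1.46 in T+), and the differences among the clones did not pass adjustment (adjusted p = 0.227 for probe (a), limma F test).

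HMG-CoA reductase, the next enzyme of the pathway, was not called. Its values were 6.53, 3.81, 6.22 and 6.45 for T+, 4.21, 4.47, 3.92 and 4.17 for clone 16 and 6.14, 3.84, 6.91 and 6.73 for clone 17, against 4.70, 4.57, 3.80 and 4.04 in W. The high arrays were the 6 T+ and clone 17 arrays other than the replicates 5 that stood apart. The difference was 1.01 (SE 0.54, adjusted p = 0.472, limma), and no W array was well above background. The remaining 3 isoprenoid probes, for acetyl-CoA acetyltransferase, phosphomevalonate kinase and diphosphomevalonate decarboxylase, exceeded the negative controls on 0 to 3 arrays and were not tested.

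All 3 probes named nose resistant to fluoxetine 6-like, after a Caenorhabditis elegans gene for a predicted membrane acyltransferase, were lower. Probe (c) had 3.82 to 6.03 (median 4.59) in the mutants and was not well above background on any of these arrays, against 8.89, 7.86, 7.71 and 8.53 in W. With the processing used here it was at least 11.4-fold lower (−3.57, SE 0.38, adjusted p = 0.000336, limma), with clone changes of −3.84, −3.55 and −3.32 in T+, clone 16 and clone 17. Probes (a) and (b), which share another gene model, had differences of −2.93 and −2.78 (adjusted p = 0.0105 and 0.00341, limma). Probe (b), also not well above background on any mutant array, was 6.6-fold lower with the same floor. Over the alternatives the difference ran from −4.66 to −1.88 for probe (c) and from −3.12 to −1.3 for probe (b). None of the 3 overlapped with W.

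Among the 12 probes listed under lipid metabolism, all tested, 9 were lower, 0 were higher (1.16% and 0.202% of all tested probes) and 3 were not called, with a median difference of −1.06. Phospholipase A2, which frees fatty acids such as arachidonic acid from membrane phospholipids, had 3.62, 3.68, 3.69 and 3.66 for T+, 3.86, 3.65, 5.57 and 3.63 for clone 16 and 5.09, 4.81, 3.66 and 3.65 for clone 17, against 9.37, 7.37, 7.47 and 9.05 in W. Only 1 of the 12 mutant arrays was well above background, so that the size of the decrease rests on dim spots (−4.27, SE 0.43, adjusted p = 0.000263, limma). ELOVL4, an elongase of very long chain fatty acids, had 3.62 to 6.38 (median 3.67) in the mutants, against 7.66, 6.57, 6.23 and 7.24 in W (−2.78, SE 0.45, adjusted p = 0.00613, limma), with 1 of the 12 mutant arrays well above background. Its groups overlapped by one array, clone 17 replicate 3.

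The other lipid enzymes changed by less. Fatty acid hydroxylase (a) had 5.92 to 9.42 (median 7.25) in the mutants, against 9.21, 10.41, 10.21 and 9.50 in W, and its second probe (b) of the same gene model had nearly the same difference (−2.26 and −2.25, adjusted p = 0.0112 and 0.0183, limma). The fatty acid desaturase probe had 6.42 to 7.36 (median 6.77) in the mutants, against 7.89, 7.32, 8.69 and 7.84 in W (−1.11, SE 0.19, adjusted p = 0.00721, limma). Alkylglycerone phosphate synthase, an enzyme of ether lipid synthesis, was 1.74-fold lower without overlap (−0.80, SE 0.15, adjusted p = 0.0168, limma), and a probe of a second gene model for this enzyme had −0.66 (adjusted p = 0.0404, limma), and it no longer passed in 28 of the 45 alternatives, including each one without a single W array. The list also holds a beta 1,3-galactosyltransferase (−1.01, adjusted p = 0.00706, limma) and contactin associated protein 1 (−1.91, adjusted p = 0.0169, limma), whose names are not those of lipid enzymes. Elongase 4-like, peroxinectin and fatty acid hydroxylase (c) were not called (−0.44, −0.11 and 0.84).

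**Figure D4:**
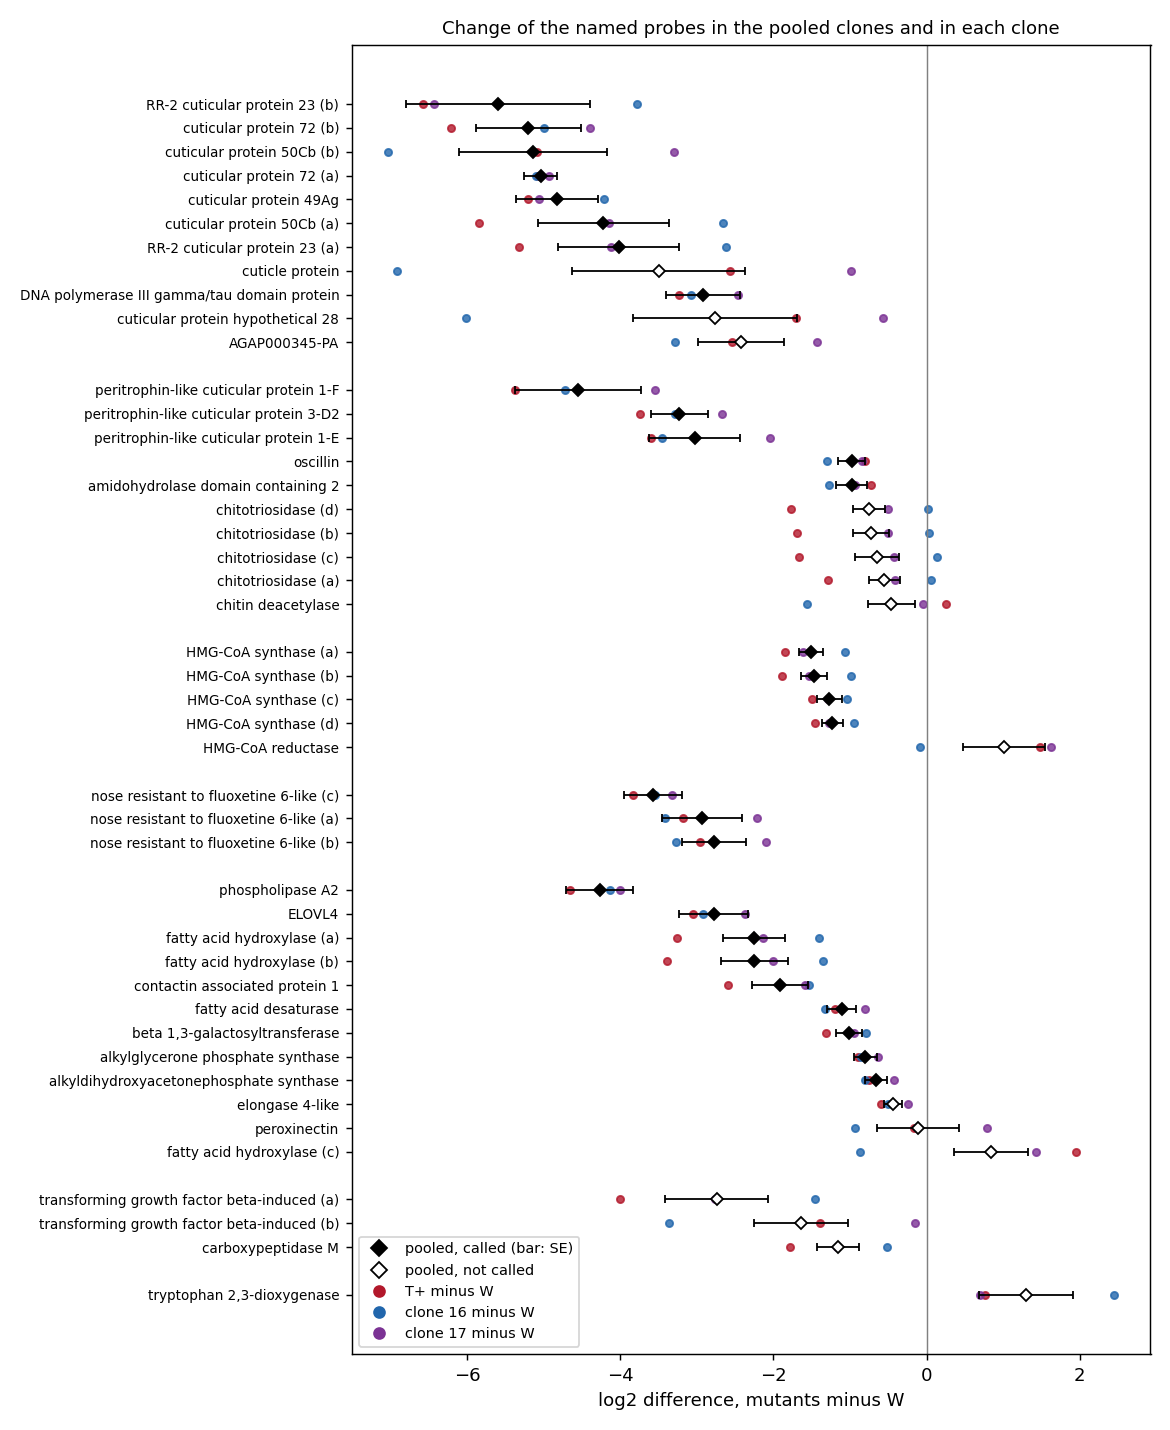
Log2 difference from W (horizontal axis) of the 45 named probes tested, in groups from top to bottom: cuticle structure, chitin and aminosugar, isoprenoid, acyltransferase, lipid, other cuticle development and tryptophan. Diamonds are the pooled contrast with its SE (filled where called) and dots the 3 clones; 29 probes are called, all of them lower, and the clones are furthest apart among the cuticle probes.

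Tryptophan 2,3-dioxygenase, the first enzyme of the kynurenine pathway, was not called in the pooled contrast. It had 6.72, 7.09, 5.18 and 6.15 in clone 16, 6.93 in T+ replicate 5 and 6.67 in clone 17 replicate 5, against 3.78 to 3.83 on the other T+ arrays, 3.80 to 3.87 on the other clone 17 arrays and 3.76, 3.80, 3.94 and 3.85 in W. It was thus above W in every female of clone 16 and in the single female of each other mutant clone that stood apart. Well above background were 3 arrays of clone 16, 1 of T+ and 1 of clone 17, and no W array. The difference was 1.30 (SE 0.62, adjusted p = 0.411, limma). Kynurenine formamidase, the next enzyme, exceeded the negative controls on 2 arrays and was not tested. Of the 3 remaining probes of cuticle development, transforming growth factor beta-induced (a) and (b) and carboxypeptidase M, none was called (−2.74, −1.64 and −1.16, adjusted p = 0.0703, 0.297 and 0.0541, limma).

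Over all groups, 45 of the 51 named probes were tested, 29 were called lower and 0 higher, against 1.16% and 0.202% of all tested probes, a share that the way these names were chosen fixes in part. The other 6 were not tested, because they exceeded the negative controls on fewer than 4 arrays. The 206 other called probes have no common name in the sources used here.

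Among called probes that did not overlap with W and were well above background on all 4 W arrays, the 10 with the largest decrease fell by 5.04 to 6.52, and 1 of them, cuticular protein 72 (b), has a name. Cuticular protein 72 (a), described above, has the same rounded change as the tenth. The first, CUST_27401_PI429715507, had 3.64 to 7.38 (median 3.85) in the mutants, against 11.88, 10.27, 9.66 and 12.24 in W (−6.52, SE 0.69, adjusted p = 0.000336, limma), and only 2 of the 12 mutant arrays were well above background. CUST_1254_PI429715507 was well above background on all 16 arrays, with 7.31 to 10.79 (median 7.66) in the mutants, against 14.26, 12.80, 12.57 and 13.65 in W (−5.34, SE 0.53, adjusted p = 0.000202, limma). In both the highest mutant array was clone 16 replicate 7.

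The increases were smaller and rested on fewer bright probes. The 10 largest among called probes that did not overlap with W and were well above background on all 12 mutant arrays rose by 0.64 to 1.97. At their head, CUST_127335_PI429715507 had 15.77, 14.25, 16.41 and 15.89 for T+, 14.57, 14.35, 14.52 and 14.72 for clone 16 and 14.04, 15.33, 15.94 and 15.85 for clone 17, against 13.23, 13.37, 13.13 and 12.96 in W. It was 3.91-fold higher (1.97, SE 0.36, adjusted p = 0.0114, limma), and the call was lost without W replicate 9 (adjusted p = 0.0549, limma).

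Among called probes well above background on all 16 arrays, the 5 lower probes with the smallest standard deviation of the clone changes (0.03 to 0.10) fell by 0.63 to 1.02, and the 5 higher ones (0.04 to 0.18) rose by 0.64 to 1.17. None of the 10 has a name. A small standard deviation in absolute terms favours small changes.

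**Figure D5:**
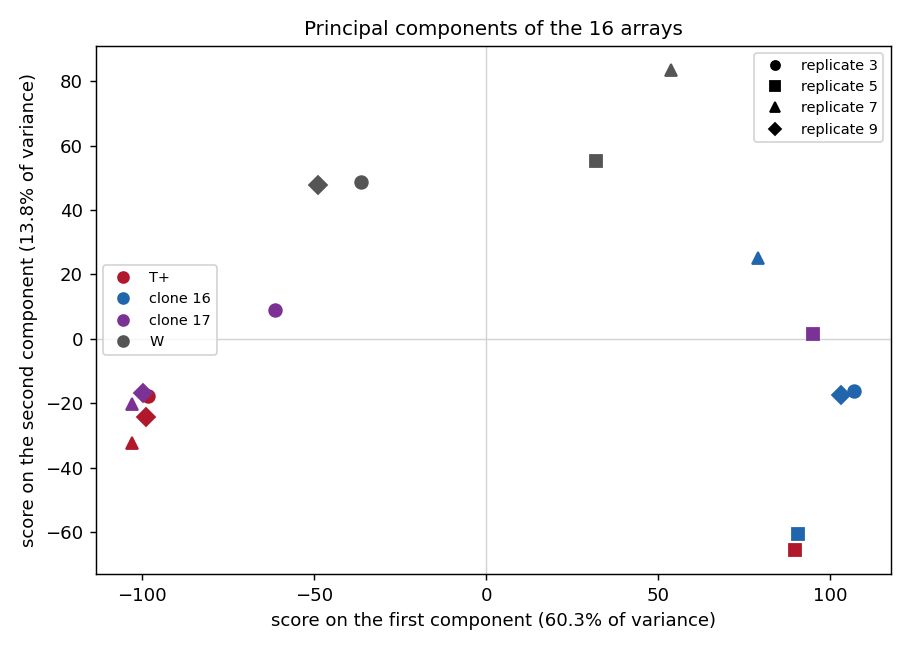
Scores of the 16 arrays on the first (horizontal axis) and second (vertical axis) principal components of the tested probes, by clone and replicate number. On the first component the mutant arrays lie at both ends, between −103 and −61.4 and between 78.9 and 107, with W from −49 to 53.8 between them, and on the second all 4 W arrays lie above all 12 mutant arrays.

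Along the largest source of variation among the arrays, the mean of the mutants was close to that of W. Of the variance, 60.3% lay on the first principal component, whose mean score was −0.02 in the mutants and 0.06 in W (exact permutation test over the 1820 partitions of the arrays, two-sided, p = 0.997). The 4 clone 16 arrays, T+ replicate 5 and clone 17 replicate 5 had scores of 78.9 to 107, and the 6 other mutant arrays −103 to −61.4. The 4 W arrays lay between them without overlap, at −36.4, 32, 53.8 and −49, an arrangement that a test of mean scores cannot register. The second component held 13.8% of the variance and averaged −19.6 in the mutants and 58.8 in W, given here as a description, with no test. The mutant array at position 1 had a score of −20.2, and the W arrays had 48.7, 55.2 and 47.9 at that position and 83.5 for replicate 7.

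With the first component taken out, by entering its score as a covariate, 537 probes were lower (3.11%) and 677 higher (3.92%), and lower probes made up 44.2% of the calls, against 85.1% without it. All 200 lower and 35 higher probes were among them. Most differences hardly moved (median absolute change 0.000137 over the tested probes, largest 0.551). The standard error fell in 68.3% of the tested probes, with a median ratio of 0.959 to that without the covariate. In the 337 probes that were lower only with the component out, the median SE was 0.296 with the covariate and 0.608 without it, and in the 642 that were higher only then, it was 0.246 and 0.654. Both sets were chosen by their calls in this model, which favours probes whose SE fell. The component was computed from the same probes that were then tested, and the p-values do not allow for that.

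With the component out, all 11 cuticle structure probes were lower, the 3 not called before having adjusted p-values of 0.0015 to 0.00315 (limma). The 3 remaining probes of cuticle development were also lower, as was chitotriosidase (d) (adjusted p = 0.0476, limma). HMG-CoA reductase (adjusted p = 0.0134, limma) and tryptophan 2,3-dioxygenase (adjusted p = 0.0166, limma) were higher, with unchanged differences of 1.01 and 1.30. Both were at the level of W on several mutant arrays, and the mutant arrays that were high were not the same for each. Of the 45 named probes tested 36 were lower and 2 higher in this model, against 3.11% and 3.92% of all tested probes. Of this component 46.9% lay between the 4 clones, so that a model with its score takes out differences among the clones as well. With the component of the deviations within clones in its place, 42 of the 200 lower and 9 of the 35 higher probes differed among the clones (limma F test, adjusted).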

How the data were processed

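Single-colour Agilent arrays of 16 females were analysed, 4 for each of 4 clones. The authors deposited, per array, spot intensities from Agilent Feature Extraction (version 10.5 per the labels), with a processed signal that the software corrected for background, and a table of log2 values, which the authors had quantile normalized and centred on each probe's median. Here the processed intensity was log2 transformed, control spots and outlier spots (49 to 122 per array) were left out, spots of a probe averaged and arrays quantile normalized in limma 3.58.1 (R 4.3.3). Of 51424 probes, 17286 were tested, those with at least 4 arrays above the 95th percentile of the negative controls (2840 spots). No spot was saturated. One limma model with a mean per clone was fitted to all arrays, and the contrast was the average of the 3 mutant means minus W. Calls required an adjusted p-value (Benjamini-Hochberg) below 0.05 and 1.5-fold. Clone differences were tested by limma's F test. Signal over background and the number of arrays limit the precision.

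Named were the probes with a common name in the study's gene ontology list, and per direction the 10 called probes with the largest change that did not overlap between mutants and W and were well above background on all 4 W arrays (lower) or all 12 mutant arrays (higher), and the 5 with the smallest spread among clones that were well above background on all 16 arrays. Of probes without a name, 2 of each direction are printed. CUST_1254_PI429715507 was picked for its signal and CUST_48867_PI429715507 for its clone difference, after their values were seen. The members, lists and tests were chosen with earlier results of these data known. Keyword lists over gene descriptions were not run, since the reference table used here pairs no description with the probes. Genome positions and sequences are likewise not given. The script was tested on simulated data. The alternatives comprised scaling, background correction, filters, thresholds, clone, slide, position and replicate terms, array weights, and left-out arrays and clones.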

Additional observations from a re-analysis of the deposited data

Results flagged for a closer look

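Among the 132 groups of 4 arrays behind the values given (28 probes and 5 measures of each array), 17 held an array whose gap to the nearest other, set against the range, passed Dixon's 95% limit, which chance passes in about 1 of 20 groups. The flags fell on few arrays. Clone 16 replicate 7 lay above the other arrays of its clone for cuticular protein 49Ag (12.49, others 8.50 to 9.12), probe CUST_1254_PI429715507 (10.79, others 7.31 to 7.63), peritrophin-like cuticular protein 1-F (6.50, others 3.75 to 3.84), ELOVL4 (5.12, others 3.62 to 3.65), probe CUST_27401_PI429715507 (7.38, others 3.70 to 4.30) and phospholipase A2 (5.57, others 3.63 to 3.86). Clone 17 replicate 3 lay above its clone for cuticular protein 72 (a) (4.72, others 3.78 to 3.89) and peritrophin-like cuticular protein 1-F (9.44, others 4.22 to 4.50). The flags for ELOVL4 in clone 16 and cuticular protein 72 (a) in clone 17 rest on dim spots, since no array of that clone was well above background.

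T+ replicate 5 stood apart on the first principal component (89.7, others −103 to −98.4), in tryptophan 2,3-dioxygenase (6.93, others 3.78 to 3.83), in HMG-CoA reductase (3.81, others 6.22 to 6.53) and in chitotriosidase (d) (7.11, others 6.47 to 6.57). Clone 17 replicate 5 stood apart in tryptophan 2,3-dioxygenase (6.67, others 3.80 to 3.87) and in probe CUST_48867_PI429715507 (4.87, others 3.78 to 3.85). T+ replicate 3 did so in ELOVL4 (4.41, others 3.65 to 3.76), in peritrophin-like cuticular protein 3-D2 (4.45, others 3.68 to 3.77) and in the median of the higher probes (1.02, others 1.18 to 1.21). No T+ array was well above background for ELOVL4 or 3-D2, and no clone 17 array for CUST_48867_PI429715507, so these flags rest on dim spots.

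The change differed among the mutant clones, by a test of that difference, in 2 of the probes described. These were CUST_48867_PI429715507 (0.25 in T+, 5.11 in clone 16 and 0.26 in clone 17, adjusted p = 0.000356, limma F test) and chitotriosidase (d) (−1.77, 0.02 and −0.50 in the same order, adjusted p = 0.0483, limma F test). Chitotriosidase (a), (b) and (c), of the same gene model, did not pass (adjusted p = 0.227, 0.143 and 0.227, limma F test).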

How the results depend on the processing

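Of the probes named, each with up to 45 alternatives (7 of them added after seeing the data), no called probe changed direction. Of those not called, chitin deacetylase ran from −0.81 to 0.38 and peroxinectin from −0.74 to 1.64. The balance of calls changed sides under several alternatives. The 200 lower and 35 higher calls became 63 and 3 by an unmoderated contrast after ANOVA, 111 and 12 with clone as a random block, and 0 and 0 in limma with clone means as units. They became 2 and 0 with position 1 as a term and W replicate 7 left out, 74 and 10 without T+, 537 and 677 with the first component as a covariate, and 535 and 678 with that of the deviations within clones. Higher calls alone moved to 18 with normexp, 13 without a background filter, 23 at a 2-fold limit, 8 with the slide as a block and W replicate 7 left out, 140 with array weights (293 lower) and 20 without clone 16. Of the added alternatives, the first slide alone gave 36 and 1, the second 0 and 0, the position term with W replicate 7 placed 511 higher, arrays away from position 1 with W replicate 7 as the lone W array, assumed to vary like the mutants, 396 and 2327, and leaving out both arrays that stood apart 401 and 539. Leaving out 1 array gave 109 (without W replicate 9) to 248 (without clone 17 replicate 5) lower and 12 (without W replicate 7) to 68 (without W replicate 3) higher probes. Higher calls also numbered 57 without T+ replicate 5, 55 without clone 17 replicate 5, and 21 to 23 without T+ replicate 7, clone 16 replicate 3 or 9 or clone 17 replicate 9. With the first component out, leaving out 1 array gave 449 to 571 lower and 494 to 845 higher probes, leaving out T+ 288 and 294, and leaving out clone 16 366 higher. Called probes that differed among the clones numbered 0 to 72 when 1 array was left out, and 51 with the component of the deviations within clones.

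The median of all tested probes was 0.08 by quantiles and 0.16 by 75th percentile scaling, with 82.6% of calls lower. Over the 200 lower probes the median difference was −1.5 with normexp, against −2.42 in the main model. Of the 29 called probes with a gene name, all lost the call with clone means as units and on the second slide alone, 28 with the position term without W replicate 7, 24 on the first slide alone and 16 without T+. Replicate numbers were not treated as pairs in the main model. Arrays of the same number had a mean correlation of 0.167 (−0.346 to 0.795), against −0.0412 (−0.764 to 0.647) for different numbers. These ranges overlap and do not settle whether the numbers pair the samples. With the replicate block 228 probes were lower and 52 higher. Signal over background limits what can be said of the 22 lower probes that were not well above it on any mutant array. The causes of these changes were not tested.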
